A study of Homo sapiens with 12 samples.

Results

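The RNF genes are the genes whose symbol is RNF (ring finger) followed by a number. Of the 60609 gene identifiers counted in the K562 libraries, 84 belong to a protein-coding gene with such a symbol in GENCODE release 44, after leaving out 1 gene that the selection excludes by name. The selection used no expression value. The 84 genes lie on 21 chromosomes, and 61 of them had enough counts to be tested for an effect of USP7 inhibition, among 13895 genes tested in all.

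K562 is an established human cell line derived from a chronic myeloid leukemia, and the study used it to follow chromatin and transcription when the deubiquitinase USP7 is inhibited. Both groups were plain K562 cells. The 3 FT671 libraries came from cells given 10 μM FT671, a small-molecule inhibitor of USP7, for 48 hours, and the 3 DMSO libraries from cells given the solvent DMSO. RNA was depleted of ribosomal RNA, sequenced in pairs of reads and counted per gene. The comparison therefore concerns 1 cell line, 1 dose and 1 time point, and the drug was the only means of lowering USP7 activity in these libraries. In bulk libraries, fewer cells of a type and less RNA per cell cannot be told apart.

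A RING finger is a small domain in which cysteines and histidines hold zinc ions, and most proteins that carry one are E3 ubiquitin ligases: the RING brings a ubiquitin-charged E2 enzyme next to a substrate. RNF proteins differ in what surrounds the RING. Some read ubiquitin or SUMO on chromatin, some sit in membranes of the endoplasmic reticulum, Golgi or endosomes, some pass ubiquitin through a catalytic cysteine in a RING-between-RING module, and others work in the cytosol or as adaptors of cullin ligases. A deubiquitinase such as USP7 removes ubiquitin that ligases attach, and several RING ligases are known USP7 substrates at the protein level. The values below are RNA levels and give no protein stability.

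The promoters of 4 RNF genes are shown because their transcripts gave the lowest adjusted p-values in each direction: RNF144A and RNF24, which fell, and RNF182 and RNF114, which rose. Each line is the 250 bases before the RefSeq start site (build GRCh38.p14), 5′ to 3′ on the gene's strand, in lower case, with matches to 8 short motifs in capitals. RNF144A is chr2:6932834-6933083 on the plus strand. RNF24 is chr20:4015559-4015808 on the minus strand. RNF182 is chr6:13924196-13924445 on the plus strand. RNF114 is chr20:49936147-49936396 on the plus strand.
RNF144A: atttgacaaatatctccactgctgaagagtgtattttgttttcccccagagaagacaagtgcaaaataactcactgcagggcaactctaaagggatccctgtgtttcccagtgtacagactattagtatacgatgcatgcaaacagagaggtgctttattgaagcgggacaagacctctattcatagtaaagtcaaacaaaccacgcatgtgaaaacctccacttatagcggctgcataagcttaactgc
RNF24: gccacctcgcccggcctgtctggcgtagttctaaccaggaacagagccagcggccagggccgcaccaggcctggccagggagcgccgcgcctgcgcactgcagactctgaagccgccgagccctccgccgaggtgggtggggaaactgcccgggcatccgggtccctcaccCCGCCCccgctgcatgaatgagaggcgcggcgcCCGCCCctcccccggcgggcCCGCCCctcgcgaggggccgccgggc
RNF182: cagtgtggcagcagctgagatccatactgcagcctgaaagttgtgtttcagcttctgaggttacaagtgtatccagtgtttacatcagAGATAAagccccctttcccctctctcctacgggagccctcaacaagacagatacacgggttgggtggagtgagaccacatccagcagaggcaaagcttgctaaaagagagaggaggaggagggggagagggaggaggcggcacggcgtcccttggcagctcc
RNF114: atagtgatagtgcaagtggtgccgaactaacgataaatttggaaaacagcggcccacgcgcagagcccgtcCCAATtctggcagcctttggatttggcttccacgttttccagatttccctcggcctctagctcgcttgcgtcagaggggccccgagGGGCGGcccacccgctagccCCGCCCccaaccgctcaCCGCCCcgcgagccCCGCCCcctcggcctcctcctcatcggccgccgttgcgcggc

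The RNF24 stretch held 3 GC boxes (CCGCCC, the other strand of GGGCGG, beginning at -79, -46 and -26 from the start), 28 CpG dinucleotides and 76.8% G and C. The RNF114 stretch held a CCAAT box at -179, 4 GC boxes (GGGCGG at -93 and CCGCCC at -73, -56 and -42) and 25 CpG. The RNF182 stretch held 1 GATA motif (AGATAA at -162) and 5 CpG, and the RNF144A stretch held none of the motifs, 4 CpG and 42.4% G and C. The RefSeq start of RNF144A lies inside the gene body as GENCODE draws it, so this window is the promoter of 1 annotated start only.

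A promoter of 300 bases (250 before and 50 after the start) was found for 69 of the 84 genes. Both strands of each were searched for 8 motifs, none of which contains another. The ETS core was searched as CCGGAA. The E-box was searched as CACGTG, and the GC box as GGGCGG. The CCAAT box was searched by those 5 letters, and the TATA box as TATAAA. The cyclic AMP element was searched as TGACGTCA. The AP-1 site was searched as TGACTCA, and the GATA motif as AGATAA. A GC box stood in 46 promoters of the 69 (66.7%), against 44.6% of all 27305 promoters in the table. CCAAT stood in 10 of the 14 promoters of RNF genes that rose (71.4%), in 7 of 19 that fell (36.8%), in 7 of 20 of the tested genes that were not called (35%) and in 35.7% of all promoters. Of the 8 motifs, CCAAT had the widest gap between genes that rose and fell. In the same order, the GC box stood in 78.6%, 63.2% and 80% of the RNF promoters and the ETS core in 14.3%, 26.3% and 35%. The 27305 promoters include those of genes not tested here. The median promoter held 22 CpG for the RNF genes and 14 for all genes. A match is a description of the letters and not a binding site, and these shares were not tested.

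The 6 libraries held between 4555220 counts (FT671 replicate 1) and 14250500 (DMSO replicate 1), so 3 counts, taken as the least that can be told from 0, were worth 0.211 to 0.659 CPM (counts per 1000000 counts of the library). CPM values below use library sizes scaled by TMM, a trimmed mean of ratios between libraries. All 8 erythroid genes used to check the label, among them GATA1 and the fetal globin genes HBG1 and HBG2, had counts in every library (summed 662 to 772 CPM in DMSO and 719 to 779 in FT671). Of the markers of other blood cells and fibroblasts, CD2, MS4A1 and COL3A1 were at 0 and CD14 was at or near 0. The summed T-cell markers, nearly all CD3D, went from 16.8 to 20.5 CPM in DMSO to 23.7 to 29.3 in FT671, and the monocyte markers, nearly all LYZ, from 51.2 to 54.0 to 72.2 to 76.0. The B-cell sums (1.85 to 3.76 and 2.86 to 3.55) and the fibroblast sums (2.11 to 2.91 and 2.44 to 2.89) overlapped. The part of these markers in the RNF results was not tested.

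The RNF genes took 0.391% to 0.400% of all counts in DMSO and 0.343% to 0.348% in FT671. Their summed level was 3950, 3930 and 3910 CPM in DMSO replicates 1 to 3 and 3520, 3470 and 3510 in FT671. The groups did not overlap, and the mean went from 3930 ± 16.3 to 3500 ± 25.3 CPM (SD, n = 3 each). Falls in mean level added up to -653 CPM and rises to 221 CPM. Of the falls, 51.7% came from 5 genes: RNF24 (-95.2 CPM), RNF187 (-76.1), RNF130 (-61.1), RNF213 (-54.6) and RNF144A (-50.7). The largest rises in CPM were RNF114 (32.7), RNF182 (24.6) and RNF169 (22.2).

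Of the 61 RNF genes tested, 14 were upregulated and 21 downregulated by FT671 at an adjusted p under 0.05, and 26 were not called (edgeR quasi-likelihood test, Benjamini-Hochberg over all genes tested). The same test called 50.1% of all genes tested: 23.6% were higher and 26.5% lower. The RNF share was 23.0% higher, close to that background, and 34.4% lower. The higher share includes RNF17, which passed the low-count filter through its FT671 libraries alone. At an unadjusted p under 0.05 the counts were 15 higher and 25 lower. The shares of all genes at that unadjusted cutoff are not given here, and the shares above do not apply to it. The median log2 fold change of the RNF genes tested was -0.09, beside -0.01 over all genes tested and -0.025 over the 11149 protein-coding genes tested. Of the RNF values, 36 were below 0 and 25 above. The median moved with the processing, from -0.13 with no filter on low counts to -0.02 after a correction for gene length, and the median of all genes moved with it, from -0.05 to 0.04; the RNF median minus that of all genes was -0.08 with no filter, -0.06 after the correction and -0.08 in the fit reported here. Every FT671 library was above every DMSO library for 17 RNF genes and below for 23, where 26.8% and 30.3% of all genes did so. Leaving out DMSO replicate 1 brought the higher count to 8, leaving out FT671 replicate 3 brought it to 9, and testing with no filter brought it to 8. A correction for gene length or GC content brought it to 17, with 20 lower in either case. The shares of all genes called in these alternatives are not given here.

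At the stricter threshold of 1e-05, 4 RNF genes were lower (RNF144A, RNF24, RNF130 and RNF26) and 0 higher, beside 4.13% lower and 1.79% higher among all genes tested. DESeq2 put 5 lower and 2 higher (RNF114 and RNF182) past that threshold. RNF144A stayed past it in each of the 16 alternatives. The count of lower genes moved with the libraries: it was 1 without DMSO replicate 1, FT671 replicate 1, FT671 replicate 2 or FT671 replicate 3, was 2 without DMSO replicate 2 and was 8 without DMSO replicate 3. Of the 35 called genes, 16 moved by less than 0.5 on the log2 scale and 2 by more than 1. Of the 26 genes not called, 19 had a 95% interval of the log2 fold change that lay within 0.5 of 0 on both sides after rounding to 2 decimals.

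**Figure D1:**
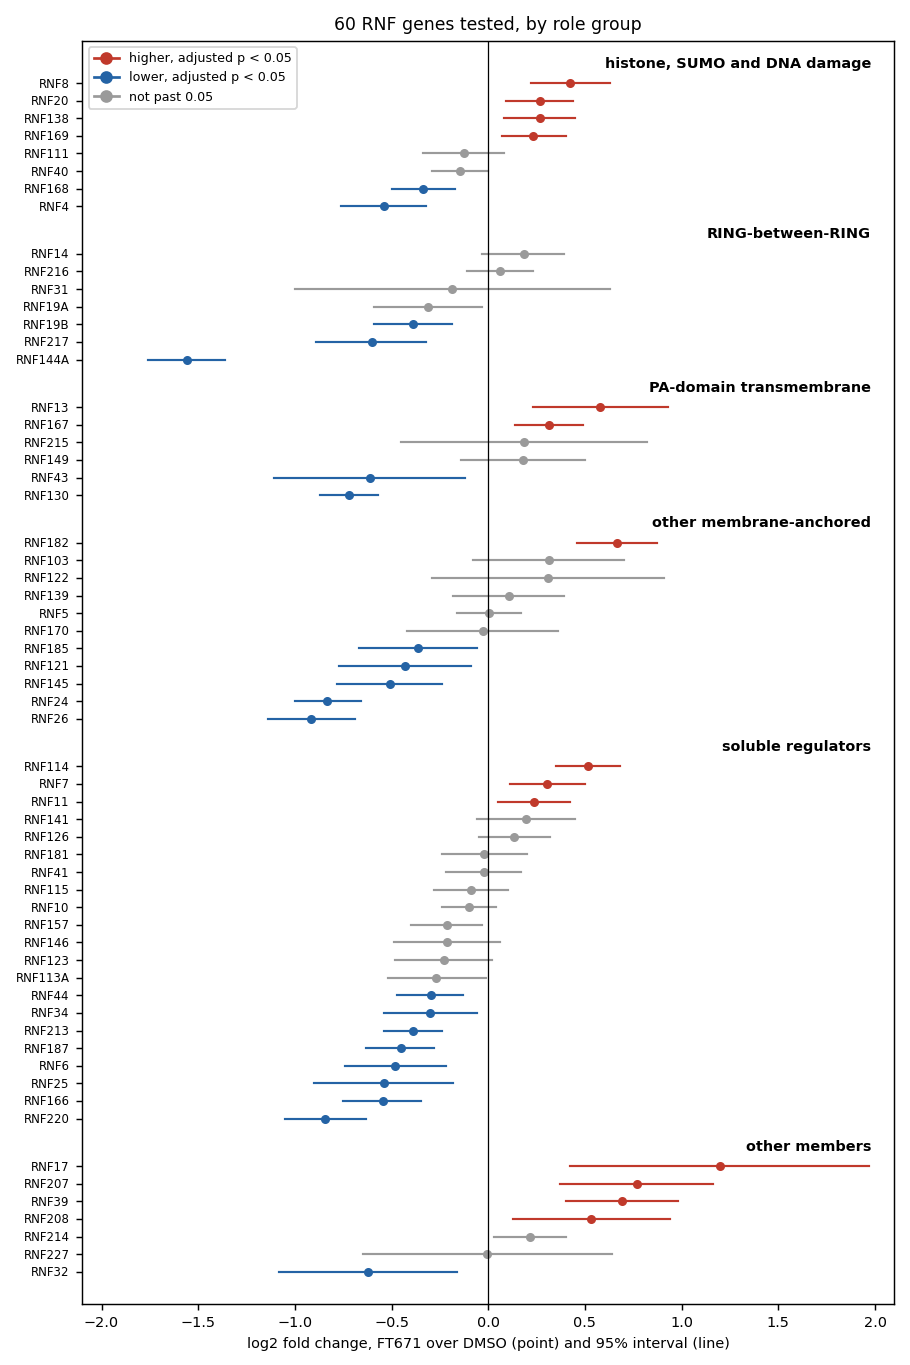
Log2 fold change of FT671 over DMSO (x axis; point, with its 95% interval as a line) for 60 of the 61 RNF genes tested, grouped by role; red marks genes higher and blue genes lower at an adjusted p under 0.05, grey the others. RNF144A stands alone at the low end at -1.56, and the RING-between-RING group has 3 genes in blue and 0 in red. Among all genes tested, 26.5% were lower and 23.6% higher.

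RNF144A showed the largest fall. It encodes a membrane-bound RING-between-RING ligase known to ubiquitinate cytosolic DNA-PKcs, the kinase of non-homologous end joining. RNF144A (ENSG00000151692, chr2:6917412-7068286 in GRCh38, plus strand) was at 75.7, 73.6 and 81.1 CPM in DMSO and at 26.4, 26.9 and 25.0 CPM in FT671. The groups were far apart and each was tight. The mean level went from 76.8 ± 3.92 to 26.1 ± 0.969 CPM (SD, n = 3), a log2 fold change of -1.56 ± 0.0945 (SE; edgeR adjusted p = 4.66e-08). No annotated exon of another gene overlaps its exons. Its close relative RNF144B had 3 counts in all, spread over 2 DMSO libraries, and was not tested.

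RNF26 (ENSG00000173456, chr11:119334527-119337309) encodes a ligase of the endoplasmic reticulum membrane that positions endosomes and acts on STING signalling. It was at 83.4, 91.1 and 72.5 CPM in DMSO and at 49.1, 43.3 and 40.4 CPM in FT671, without overlap (log2 fold change -0.92 ± 0.106 SE, edgeR adjusted p = 9.76e-06). An antisense long non-coding RNA, ENSG00000245385, covers 18.2% of the RNF26 exons and fell too (-1.19). How the counting treated strand is not given in the sources used here, so reads of both genes cannot be told apart where they overlap.

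RNF24 (ENSG00000101236, chr20:3927309-4015558), a small membrane-anchored RING protein of the Golgi, had the largest fall in CPM. Its level was 208, 204 and 238 CPM in DMSO and 126, 119 and 119 CPM in FT671, so the highest FT671 library stood well below the lowest DMSO library. The log2 fold change was -0.83 ± 0.0788 (SE; edgeR adjusted p = 1.64e-06). PANK2 runs antisense across 33.7% of the RNF24 exons and had a log2 fold change of 0.01. RNF130 (ENSG00000113269, chr5:179911651-180072113), a ligase with a protease-associated domain and a single membrane span, was at 154, 159 and 153 CPM in DMSO and at 95.1, 90.9 and 96.9 CPM in FT671. Its replicates lay within a few CPM of each other in both groups (-0.72 ± 0.0718 SE, edgeR adjusted p = 2.64e-06).

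RNF220 (ENSG00000187147, chr1:44405194-44651723) encodes a ligase known to stabilise β-catenin with the help of USP7. It was at 74.1, 74.4 and 70.1 CPM in DMSO and at 44.6, 35.5 and 42.0 CPM in FT671, and its adjusted p of 1.04e-05 (edgeR) lay just outside the strict threshold (log2 fold change -0.84 ± 0.0982 SE). RNF32 (ENSG00000105982, chr7:156640281-156677130), expressed mainly in testis, was low: 9.35, 11.4 and 9.24 CPM in DMSO and 9.11, 4.15 and 6.61 CPM in FT671. The groups are separated only by the small gap between DMSO replicate 3 and FT671 replicate 1 (-0.62 ± 0.215 SE, edgeR adjusted p = 0.0269), and 42.4% of the RNF32 exons are shared with other genes, mostly RNF32-AS1 on the opposite strand.

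The 6 largest rises among genes whose libraries did not overlap began with RNF17 (ENSG00000132972, chr13:24764169-24879921), a germ-cell Tudor-domain protein, which was barely expressed. It was at 0.623, 0.733 and 0.739 CPM in DMSO and at 1.55, 1.26 and 1.79 CPM in FT671, that is 4 to 9 counts in a DMSO library and 7 to 20 counts in an FT671 library (log2 fold change 1.2 ± 0.362 SE, edgeR adjusted p = 0.0134). RNF17 was not called by DESeq2 (1.17) or with no filter on low counts (1.15). The low-count filter asks for a minimum level in 3 libraries, and RNF17 met it through its FT671 libraries alone. Its test and its place among the rises therefore depend on the group where it was high. RNF207 (ENSG00000158286, chr1:6205475-6221299), known from heart muscle, was at 9.14, 7.33 and 5.36 CPM in DMSO and at 10.9, 13.0 and 14.3 CPM in FT671 (0.77 ± 0.185, adjusted p = 0.00335, edgeR). RPL22 (0.59, mean 89.3 CPM) runs antisense across 3.7% of the RNF207 exons, and ICMT (-0.60, mean 95.8 CPM) across 1.6%. RNF39 (ENSG00000204618, chr6:30070266-30075849), a gene of the major histocompatibility region, was at 15.9, 13.8 and 15.9 CPM in DMSO and at 24.4, 28.5 and 21.4 CPM in FT671 (0.69 ± 0.134, adjusted p = 7.22e-04, edgeR). PPP1R11 (0.66, mean 122 CPM) runs antisense across 3.1% of the RNF39 exons. Since the strand setting is not given, the part of antisense reads in the values of RNF207 and RNF39 was not tested. RNF17, RNF207 and RNF39 were at low to moderate levels. The gap of RNF207 (9.14 to 10.9 CPM) was narrower than the spread of its DMSO libraries (5.36 to 9.14 CPM). The raw counts of RNF17 overlapped between the groups.

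RNF182 (ENSG00000180537, chr6:13924446-13980310), a membrane-anchored ligase described in neurons, rose from 40.9, 41.7 and 46.4 CPM in DMSO to 62.0, 70.0 and 71.0 CPM in FT671 (0.67 ± 0.095 SE, edgeR adjusted p = 5.87e-05), and it had the lowest adjusted p among the RNF genes that rose. RNF13 (ENSG00000082996, chr3:149812770-149962139), a ligase of endosomes and lysosomes, was at 8.24, 6.69 and 9.80 CPM in DMSO and at 12.4, 11.9 and 11.9 CPM in FT671 (0.58 ± 0.163, adjusted p = 0.00891, edgeR). RNF208 (ENSG00000212864, chr9:137220247-137222240) was at 9.07, 9.71 and 5.36 CPM in DMSO and at 13.3, 10.6 and 12.6 CPM in FT671 (0.53 ± 0.189, adjusted p = 0.0302, edgeR). DMSO replicate 3 is the lowest library for RNF208 and RNF207. RNF208 lost its call without FT671 replicate 1 or FT671 replicate 3, with values of 0.37 to 0.66 over the 6 libraries left out in turn.

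**Figure D2:**
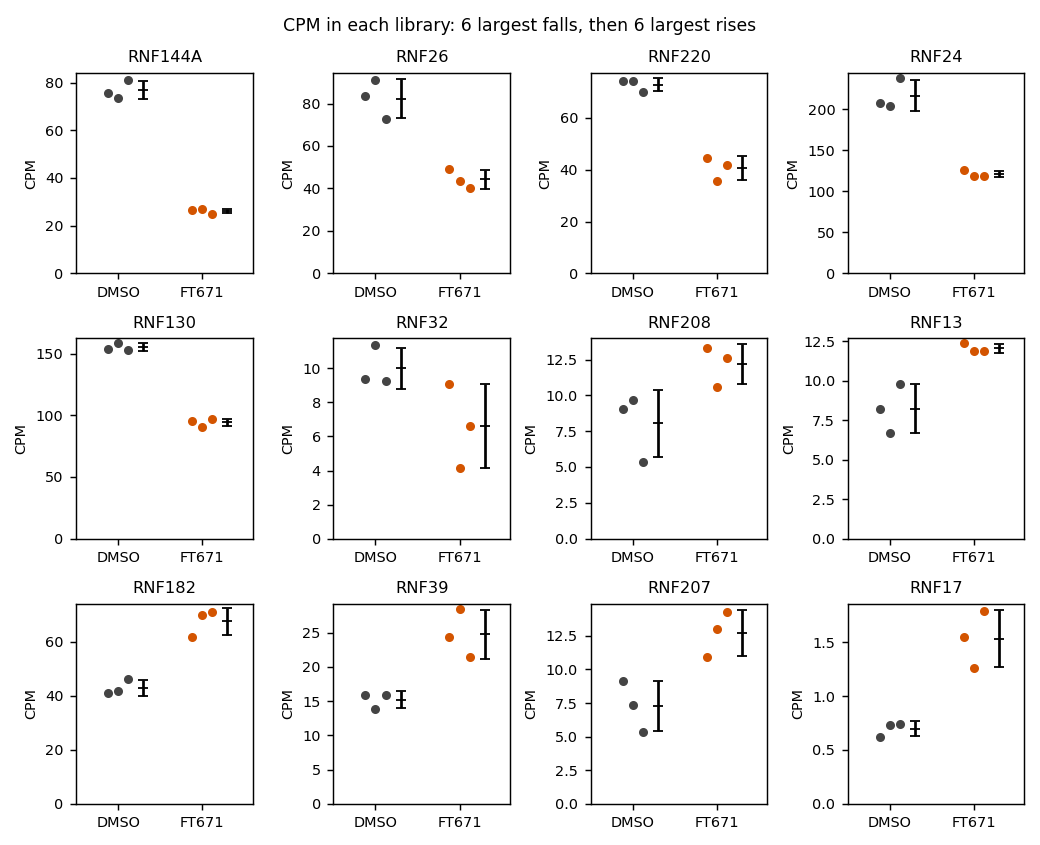
CPM in each library (y axis, from 0; points for replicates 1 to 3 from left to right; mean with SD as bar) for the 6 largest falls and the 6 largest rises among RNF genes whose groups did not overlap. RNF144A sits between 73.6 and 81.1 CPM in DMSO and at or below 26.9 CPM in FT671, while RNF32 has 1 FT671 library (9.11 CPM) almost level with DMSO.

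Among the 8 genes of histone ubiquitination, SUMO-targeted ubiquitination and the DNA damage response, all tested, 4 rose and 2 fell, with a median log2 fold change of 0.05. RNF8 reads phosphorylated MDC1 at double-strand breaks and starts ubiquitin signalling there. It rose from 35.0, 38.7 and 36.8 CPM to 50.6, 50.2 and 47.5 CPM (0.42 ± 0.0943 SE, edgeR adjusted p = 0.00199) and kept its call in every alternative. RNF168, the ligase that acts after RNF8 on histone H2A, fell from 125, 127 and 141 CPM to 101, 101 and 108 CPM (-0.34, edgeR adjusted p = 0.00247). RNF169, a relative that binds the marks RNF168 makes, was at 131, 123 and 136 CPM in DMSO and at 141, 157 and 159 CPM in FT671 (0.23, edgeR adjusted p = 0.0213). RNF8 and RNF168 thus moved in opposite directions in the same libraries, each beyond its replicate spread.

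RNF20 and RNF40 form the ligase that places monoubiquitin on histone H2B. RNF20 rose slightly, from 58.9, 63.2 and 64.1 CPM to 72.0, 76.3 and 75.0 CPM (0.27, edgeR adjusted p = 0.015), and RNF40 was at 245, 251 and 236 CPM in DMSO and at 224, 216 and 222 CPM in FT671 (-0.14, edgeR adjusted p = 0.0855). Of the RNF40 exons, 40.2% are shared with other genes. RNF4, a SUMO-targeted ligase, fell from 33.0, 35.1 and 34.0 CPM to 22.4, 23.3 and 24.2 CPM (-0.54, edgeR adjusted p = 6.11e-04), and RNF111, the other SUMO-targeted ligase, gave -0.13 (95% interval -0.34 to 0.08). RNF138, which acts in end resection, rose by 0.27 on the log2 scale (edgeR adjusted p = 0.0222). The rises of RNF20, RNF138 and RNF169 were not called with no filter on low counts.

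Of the 7 RING-between-RING genes tested, 3 fell and 0 rose at the threshold, with a median of -0.31. Of all genes tested, 26.5% fell and 23.6% rose, and the difference of these 7 genes from that share was not tested. Among RING-between-RING ligases outside the RNF genes, ARIH2 rose (0.31) and CUL9 fell (-0.58). The number higher was also 0 at an unadjusted p under 0.05 and in DESeq2, and it was 1 (RNF14, at 0.22 to 0.26) with the corrections for gene length or GC content, with and without a replicate block. The shares of all genes in these settings are not given here. Beside RNF144A, RNF217, known as a regulator of the iron exporter ferroportin, fell from 47.5, 43.5 and 53.6 CPM to 24.0, 36.1 and 33.3 CPM (-0.60, edgeR adjusted p = 0.0019). RNF19B fell from 54.6, 57.1 and 51.4 CPM to 44.6, 40.1 and 40.7 CPM (-0.39, edgeR adjusted p = 0.00342). Its paralog RNF19A gave -0.31 with an adjusted p of 0.0586 (edgeR). RNF14, which resolves stalled ribosomes, gave 0.18 (95% interval -0.03 to 0.39), and RNF216 0.06 (-0.11 to 0.23). RNF31, the catalytic subunit of the linear ubiquitin chain assembly complex LUBAC, had 3 to 26 counts a library and gave -0.19 with an interval from -1 to 0.63. Since 56.2% of its exons are shared, mostly with the same-strand gene ENSG00000259529, reads there cannot be assigned to 1 gene.

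Of the 6 tested ligases with a protease-associated domain and a membrane span, 2 rose and 2 fell (median 0.18). RNF13 and RNF130 are given above. RNF167, a lysosomal ligase, rose from 65.0, 59.5 and 60.3 CPM to 78.8, 75.2 and 76.7 CPM (0.32, edgeR adjusted p = 0.00537). RNF43 removes Frizzled receptors from the cell surface and so restrains WNT signalling. It was at 7.48, 7.69 and 5.18 CPM in DMSO and at 4.89, 5.95 and 3.57 CPM in FT671, and the groups overlap although the test called it lower (-0.61 ± 0.23 SE, edgeR adjusted p = 0.0385), and DESeq2 did not (-0.55). Of its exons 69.0% are shared, nearly all with the same-strand gene ENSG00000285897. RNF149 gave 0.18 (95% interval -0.14 to 0.50) and RNF215 0.19 (-0.45 to 0.82), neither past the threshold.

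The other membrane-anchored ligases had 11 genes tested, of which 1 rose (RNF182) and 5 fell (RNF26, RNF24, RNF145, RNF121 and RNF185), with a median of -0.03. RNF145 takes part in sterol-dependent degradation in the endoplasmic reticulum and fell from 20.8, 19.1 and 21.1 CPM to 12.9, 13.7 and 15.5 CPM (-0.51, edgeR adjusted p = 0.00389). RNF139, also known as TRC8 and acting on the same sterol pathway, gave 0.11 (95% interval -0.18 to 0.39). RNF5 and RNF185 serve protein quality control at the endoplasmic reticulum. RNF5 lay between 98.3 and 108 CPM in DMSO and between 99.8 and 108 CPM in FT671, so the groups overlapped fully (0.00, 95% interval -0.16 to 0.17), and RNF185 gave -0.36 (edgeR adjusted p = 0.0466) with overlapping groups. RNF170, which acts on IP3 receptors, gave -0.03 (-0.42 to 0.36), RNF122 0.31 (-0.29 to 0.91) and RNF103 0.31 (-0.08 to 0.70).

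The soluble regulators were the largest group, with 22 genes tested, 3 higher, 8 lower and a median of -0.21. RNF187, a coactivator of the transcription factor JUN, fell from 304, 297 and 255 CPM to 223, 202 and 202 CPM (-0.45, edgeR adjusted p = 3.96e-04). RNF213, a giant ATPase and ligase linked to moyamoya disease and lipid droplets, fell from 232, 222 and 241 CPM to 183, 174 and 174 CPM (-0.39, edgeR adjusted p = 3.92e-04). RNF166 fell by 0.55 (edgeR adjusted p = 2.83e-04), RNF6 by 0.48 (0.00427) and RNF44 by 0.30 (0.00613) on the log2 scale. These falls were modest, and of the 5 genes RNF44 alone lost its call when a library was left out.

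RNF114 gave the largest rise of the soluble group, from 76.5, 75.2 and 73.8 CPM to 111, 109 and 103 CPM (0.52 ± 0.0756 SE, edgeR adjusted p = 7.54e-05). RNF7, the RING subunit of cullin-5 ligases, rose by 0.30 on the log2 scale (edgeR adjusted p = 0.0113) and RNF11, an adaptor of the ubiquitin-editing A20 complex, by 0.24 (edgeR adjusted p = 0.0331). RNF7 was not called with no filter on low counts, nor was RNF11. Genes not called included RNF10 (-0.10), RNF41 (-0.02), RNF181 (-0.02), RNF115 (-0.09), RNF126 (0.13) and RNF141 (0.20). RNF123, a ligase of the cell cycle inhibitor p27, gave -0.23 (95% interval -0.48 to 0.02), RNF146, which recognises poly-ADP-ribose on axin, gave -0.21 (-0.49 to 0.06), RNF113A, of the spliceosome, -0.27 (-0.52 to -0.01, edgeR adjusted p = 0.0728) and RNF157 -0.21 (-0.40 to -0.03, edgeR adjusted p = 0.0502). Several of these intervals reach changes as large as the called ones.

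The 7 tested genes outside these groups were 4 higher (RNF17, RNF207, RNF39 and RNF208), 1 lower (RNF32) and 2 not called (RNF214 at 0.22, edgeR adjusted p = 0.051, and RNF227 at -0.01), with a median of 0.53. All 5 called genes of this group have a DMSO mean under 20 CPM. Of these, RNF17 passed the low-count filter through its FT671 libraries alone. The roles were assigned from general knowledge of each protein, and the differences between groups were not tested. The counts of each role group stand beside 23.6% higher and 26.5% lower among all genes tested.

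Some calls rested on single libraries or on the tool. DESeq2 did not call RNF32, RNF43, RNF25, RNF121, RNF185, RNF34, RNF11, RNF208 or RNF17. Leaving out each library in turn, RNF11 lost its call without any one of the 6 but DMSO replicate 3 (0.19 to 0.27). RNF169 (0.20 to 0.28), RNF185 (-0.45 to -0.28) and RNF34 (-0.40 to -0.21) lost theirs without DMSO replicate 1, DMSO replicate 2, FT671 replicate 2 or FT671 replicate 3. RNF43 (-0.79 to -0.36) and RNF121 (-0.57 to -0.35) lost theirs without DMSO replicate 1, DMSO replicate 2, FT671 replicate 1 or FT671 replicate 3. RNF32 (-0.82 to -0.41) and RNF25 (-0.63 to -0.48) lost theirs without DMSO replicate 2, FT671 replicate 2 or FT671 replicate 3. RNF20 (0.22 to 0.29) lost its call without DMSO replicate 1, FT671 replicate 2 or FT671 replicate 3, RNF138 (0.21 to 0.34) without DMSO replicate 1, FT671 replicate 1 or FT671 replicate 2, RNF7 (0.27 to 0.36) without DMSO replicate 1 and RNF44 (-0.33 to -0.25) without FT671 replicate 2. RNF25, RNF121 and RNF34 stood at -0.54, -0.43 and -0.30 with all 6 libraries, with edgeR adjusted p-values of 0.0151, 0.0363 and 0.0357. KDM2B runs antisense across 9.4% of the RNF34 exons and gave -0.75.

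Per kilobase of exon, the scale on which genes can be compared with each other, the RNF genes tested spanned a wide range in DMSO. The highest level was RNF5 at 91.1 CPM per kb, followed by RNF181 (80.3), RNF10 (49.0), RNF187 (40.1) and RNF40 (38.8). The lowest was RNF17 at 0.124, and the median was 8.10 beside 5.07 over all genes tested. There were 13 genes over 20 CPM per kb and 4 under 1. In FT671, RNF5 (91.0), RNF181 (79.8) and RNF10 (45.7) kept the first 3 places. RNF26 (29.6 to 15.9) and RNF24 (28.3 to 15.9) left places 6 and 8 for levels that were the same to 3 digits. The exon length is that of all annotated exons merged, which understates the level of a gene that uses few of them.

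**Figure D3:**
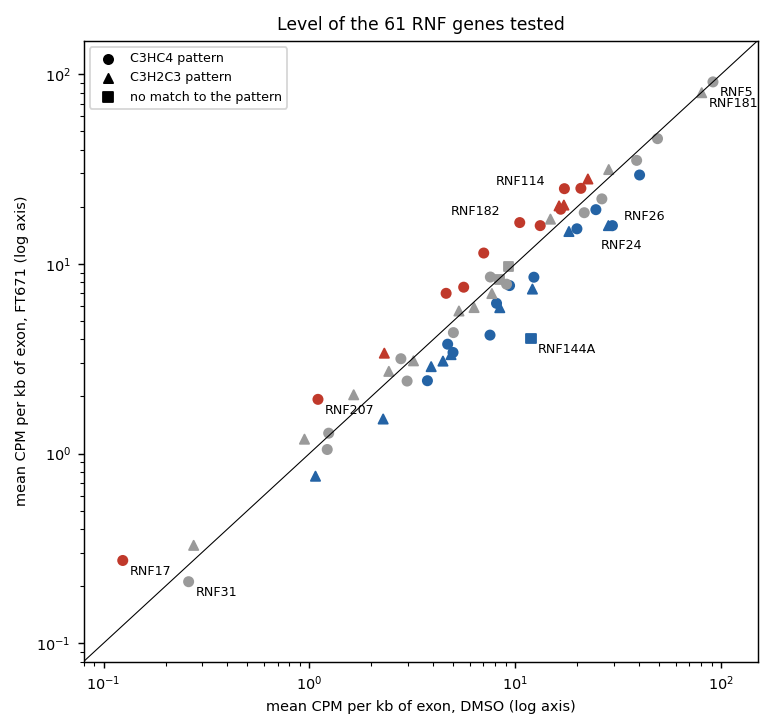
Mean level of the 61 RNF genes tested in DMSO (x axis) and FT671 (y axis), in CPM per kb of exon on log axes; the marker shows the RING pattern, red and blue genes higher and lower at an adjusted p under 0.05, and the line marks equal levels. RNF5 lies on the line near 91.1 CPM per kb, RNF144A lies farthest below it, and RNF17 sits at the low end at 0.124.

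The RING itself comes in 2 main forms, named after the order of the cysteines (C) and histidines (H) that bind zinc: C3HC4, with 1 histidine, and C3H2C3, with 2. A search of the proteins translated from GENCODE coding sequences found the C3HC4 pattern in 49 RNF genes and C3H2C3 in 30. The remaining 5 (RNF144A, RNF144B, RNF216, RNF41 and RNF103-CHMP3) did not match the spacing searched. Of 34 tested genes with C3HC4, 10 rose and 11 fell (median -0.17), and of 24 with C3H2C3, 4 rose and 9 fell (median -0.03). Both forms held genes that moved in each direction, and the difference was not tested. The RNF genes that rose had a median exon length of 3937 bases and a GC content of 44%, and those that fell 5347 bases and 50.8%. Over all genes tested the medians were 4146 bases and 47.8% for those higher and 5810 bases and 50.7% for those lower. The part of length and GC content in the calls was not tested beyond the corrections given with the processing alternatives.

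Close relatives among the RNF genes did not always carry the same call. The test called 50.1% of all genes tested, and how often unrelated genes differ in call was not tested. Of 19 pairs of close relatives, 11 had both genes tested. In 2 pairs the genes were called in opposite directions: RNF114 (0.52) and RNF166 (-0.55), whose aligned proteins are 45.6% identical, and RNF168 (-0.34) and RNF169 (0.23), 29.6% identical. RNF114 ended above RNF166 by a wide margin (24.9 against 8.50 CPM per kb in FT671), from 17.3 against 12.3 in DMSO. In 1 pair both rose, RNF13 (0.58) and RNF167 (0.32), 49.6% identical. In 0 pairs were both called lower. At an adjusted p under 0.05, 1 gene was called in 7 pairs, among them RNF5 (0.00) with RNF185 (-0.36), 63.1% identical, and RNF24 (-0.83) with RNF122 (0.31), 58.6% identical. Such a pair can hold close values: RNF19A gave -0.31 and was not called, and RNF19B gave -0.39 and was called. RNF130 fell (-0.72) while its relative RNF149 gave 0.18, at 42.3% identity. The pair of RNF115 (-0.09) and RNF126 (0.13) had no call. The differences within pairs were not tested.

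**Figure D4:**
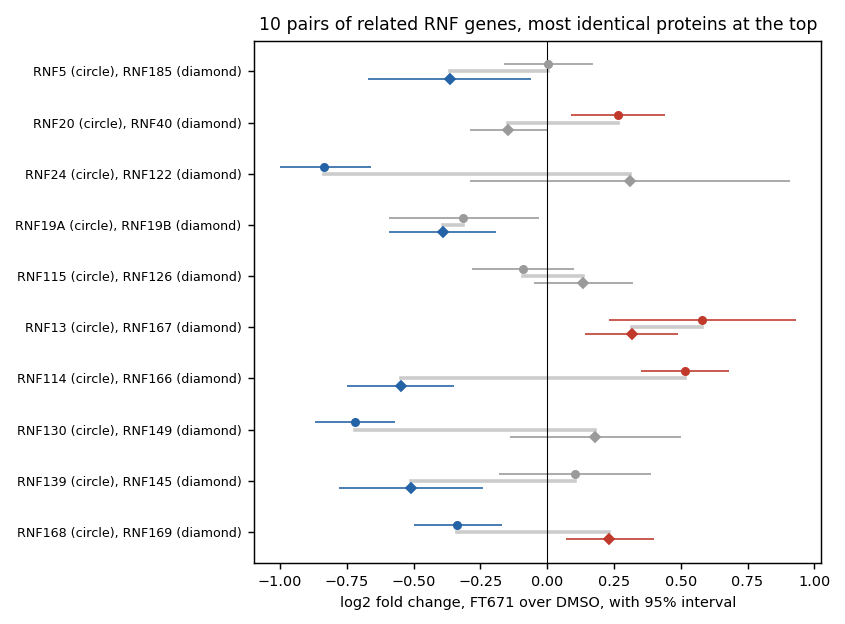
Log2 fold change of FT671 over DMSO (x axis) with 95% intervals for both genes of 10 of the 11 pairs tested, circle for the first named and diamond for the second, red higher, blue lower and grey not past an adjusted p of 0.05; pairs run from the most identical proteins at the top to the least. The intervals of RNF114 and RNF166 lie on opposite sides of 0, as do those of RNF168 and RNF169, while those of RNF13 and RNF167 both lie above it.

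Of the 84 RNF genes, 23 were not tested. No count was found in any of the 6 libraries for 11 of them: RNF112, RNF128, RNF133, RNF135, RNF148, RNF150, RNF151, RNF152, RNF180, RNF186 and RNF212. The depth allows each of these up to 0.211 to 0.659 CPM, depending on the library, and covers counting error only. The other 12 had at most 9 counts in a library: RNF103-CHMP3, RNF113B, RNF125, RNF144B, RNF165, RNF175, RNF183, RNF212B, RNF222, RNF223, RNF224 and RNF225. RNF125 came closest to being tested, with 8, 5 and 1 counts in DMSO and 9, 6 and 9 counts in FT671. RNF103-CHMP3 is a read-through of RNF103 and CHMP3, which share its exons, so reads there cannot be assigned to 1 gene. Of the 10 ligases with a protease-associated domain 4 were at 0, and all 8 genes of the histone and DNA damage group were expressed.

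In all, 63 RNF genes had counts in each of the 6 libraries. Exon overlap with other genes touched many of them: 66 of the 84 shared at most 10% of their exons. Of the 47 of these that were tested, 13 rose (27.7%) and 15 fell (31.9%), beside 23.6% and 26.5% of all genes tested. Their median was -0.02, beside -0.010 over all genes tested and -0.025 over the protein-coding genes tested.

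Of 35 genes listed as partners, substrates or relatives of RNF proteins, all tested, 7 rose (20%) and 14 fell (40%), beside 23.6% and 26.5% of all genes tested, with a median log2 fold change of -0.11. Tankyrase TNKS (-0.54) and AXIN1 (-1.08, edgeR adjusted p = 3.89e-07), which RNF146 links in WNT signalling, both fell. AXIN1 was at 83.7, 81.6 and 81.0 CPM in DMSO and 41.8, 37.3 and 38.0 CPM in FT671, without overlap. Genes that work with RNF43 around the WNT receptors fell as well: ZNRF3 (-0.79), LGR4 (-0.46) and LRP6 (-0.71). UBAC1, the partner of RNF123 in the KPC ligase, fell (-0.72, edgeR adjusted p = 2.46e-06), from 354, 366 and 323 CPM to 214, 210 and 210 CPM.

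CUL5, the cullin that RNF7 joins, fell (-1.23) from 25.1, 25.2 and 33.5 CPM to 9.55, 13.7 and 11.6 CPM, while RNF7 rose. WAC, which brings RNF20 and RNF40 to transcribed chromatin, fell (-0.72). UBE2N, the E2 enzyme of RNF8, rose (0.32) and HERC2, which promotes the pairing of RNF8 with UBE2N, fell (-0.51). Of the genes of the endoplasmic reticulum, INSIG1 (0.46) and ERLIN2 (0.76, edgeR adjusted p = 4.11e-06) rose and ERLIN1 (-0.31) fell. Of the LUBAC genes OTULIN rose (0.55) and RBCK1 fell (-0.34), and USP8, CUL9, MGRN1, ARIH2 and UBA6 gave -0.58, -0.58, -0.38, 0.31 and 0.57, all called. RBCK1 and ERLIN1 had overlapping groups.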

How the data were processed

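RNA-seq was analysed for 3 DMSO and 3 FT671 libraries of K562 cells. The deposited files hold raw counts per Ensembl gene; per the study's methods, the authors depleted ribosomal RNA, sequenced paired ends and aligned to hg38 with STAR in 2 passes. Versions, annotation and strand setting are not given in the sources used here. The 6 ChIP-seq samples listed with these libraries are not analysed here. Replicates are separate experiments per the study.

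Identifiers without version were matched to GENCODE 44 (60295 of 60609; the 314 unmatched hold 0.0609% of counts). The RNF genes, roles, pairs, partner and marker lists were chosen with earlier results of these data known. Genes passing filterByExpr were fitted with edgeR 4.0.16 (glmQLFit, glmQLFTest, TMM; R 4.3.3) with group as the only term; p-values were adjusted by Benjamini-Hochberg over 13895 genes. The standard error is the log2 fold change over the root of F. The fit was tested on simulated data. Alternatives were a replicate block, other scaling, DESeq2 1.42.0, no filter, at least 10 counts in every library, loess corrections for exon length and GC (span 0.3), and each library left out. Depth was 4555220 to 14250500 counts.

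Named with values in every library were genes past 1e-05 and, past 0.05, the 6 largest rises and falls whose groups were separate and whose average over all libraries reached 1 CPM; other values per library illustrate their role group and were chosen after the values were seen. The values of 1 RNF gene and 1 partner gene are not reported here by name; both are in the counts. Promoters came from RefSeq, GRCh38.p14. Proteins were translated from GENCODE canonical transcripts; the RING search allowed set spacings between zinc ligands.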

Additional observations from a re-analysis of the deposited data

How the results depend on the processing

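In the shallowest library a gene with no count could still stand at up to 0.659 CPM. No result reversed. Of 35 called RNF genes, 21 kept their call in every alternative and 14 lost it in at least 1, and 9 others gained one. The number higher at 0.05 (14) was 8 with no filter, 11 in DESeq2 and 8 to 15 with a library left out. The number lower (21) was 15 to 26 with a library left out and 15 in DESeq2. With the length or GC correction, 17 were higher, with and without the replicate block. The number lower was then 20 with either correction alone, and with the block 19 (length) and 18 (GC). At 1e-05 the number higher (0) was 2 in DESeq2, 1 with no filter, 2 with the GC correction, 2 with it and the replicate block, 2 with the length correction and the replicate block, and 0 to 2 with a library left out. The number lower (4) was 8 with no filter and 1 to 8 with a library left out. The shares of all genes called in these alternatives are not given here. Whether the RNF counts moved with those of all genes was not tested. The median of -0.09 became -0.07 with DESeq2 size factors, -0.12 with library totals, -0.13 with no filter, -0.02 with the length correction, -0.03 with it and the replicate block, -0.04 with the GC correction, -0.07 with it and the replicate block, and -0.12 to -0.07 with a library left out. The median of all genes moved too: the RNF median minus that of all genes stayed between -0.11 and -0.06 over all 16 alternatives. None of these alternatives left out genes for exon overlap. Among the 47 tested RNF genes that shared at most 10% of their exons, the median was -0.02, beside -0.010 over all genes tested. With no filter, 73 RNF genes entered the fit. The cause of the other shifts was not tested.

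Replicate numbers are shared by the groups, and the study describes 3 independent experiments. Whether same-numbered libraries form pairs is not given. Correlations of same-numbered deviations were 0.115, -0.0605 and 0.14, and those of differently numbered libraries ran from -0.168 to 0.125. With 3 libraries a group, these values cannot decide whether the samples were paired. A replicate block gave 14 higher and 20 lower, with 5 lower and 0 higher at 1e-05 and a median of -0.10; RNF43 (-0.50) and RNF185 (-0.31) lost their call and RNF157 (-0.22) gained one. Not every library correlated best with its own number.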
